A study of Sus scrofa with 6 samples.

Results

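The genes described here are 8 transcription factors and cofactors of muscle: the myocyte enhancer factors MEF2A, MEF2C and MEF2D, the homeobox factors SIX2 and SIX4, and the EYA cofactors EYA1, EYA3 and EYA4. They were taken by their Ensembl symbols on Sus scrofa 11.1, and all 8 were found among the 25973 protein-coding gene IDs of the files, with 31 of 72511 transcripts. RNA was sequenced from 2 skeletal muscles of 3 Min pigs, a local Chinese breed: the longissimus thoracis (LT) of the back and the semitendinosus (ST) of the hind limb. This gave 3 LT and 3 ST libraries, and replicates with the same number were taken to come from the same pig. All animals carried the wild-type label and had the same age, and no treatment is named. The samples were whole muscle with every cell type it holds (the labels file the tissue under cell line), and which portion of ST was cut is not given in the sources used here. The comparison asks how the levels of these factors, and the isoforms that make up each level, differed between a back and a limb muscle of the same pig. Values are FPKM, the fragments on a transcript per kilobase of its length, scaled to the mapped fragments of the library, which is a level per length. A gene sum is the FPKM added over the mRNA transcripts of a gene.

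MEF2 proteins bind A/T-rich elements of muscle genes, act with the myogenic bHLH factors, and are held in check by class II histone deacetylases until calcium-dependent kinases and calcineurin relieve them. SIX-family proteins bind the MEF3 element of muscle promoters and depend on EYA proteins, which are coactivators with phosphatase activity, while DACH proteins act as corepressors of the same complex. In adult muscle MEF2 activity is known for its part in slow and oxidative gene programmes, and the SIX-EYA complex for its part in fast and glycolytic ones.

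ST replicate 2 stood apart from the other ST libraries. Of 6 slow fibre genes and 8 fast fibre genes measured, ST replicate 2 lay nearer to the LT mean than to the mean of ST replicates 1 and 3 for all 6 and all 8 on the log2(FPKM + 0.1) scale. The slow genes summed to FPKM of 4457 to 6802 in LT, to 36960 and 37220 in ST replicates 1 and 3, and to 5987 in ST replicate 2. The fast genes summed to 23380 to 32200 in LT, to 5521 and 1601 in ST replicates 1 and 3, and to 21250 in ST replicate 2. Results are therefore given with ST replicate 2 and, where that changed a call or moved a value by much, also without it. Genes of the muscle fibre itself were high in every library, with ACTA1, skeletal actin, at FPKM of 1768 to 3025. Mitochondrial transcripts took 2.91 to 4.25% of the listed fragments in LT and 6.15 to 8.48% in ST, and 35623 to 37657 transcripts had FPKM above 0.1 per library.

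The most and the least abundant of the 8 genes were about a decade apart. In LT the order of mean gene sums was MEF2A (39.7), EYA4 (37.1), MEF2C (27.9), SIX2 (12.1), SIX4 (9.99), MEF2D (9.44), EYA1 (3.50) and EYA3 (3.12). Clear gaps in LT lay only between MEF2C and SIX2 and between MEF2D and EYA1, since all other neighbours overlapped between libraries. In ST the order was MEF2C (44.7), MEF2A (27.0), EYA4 (18.8), MEF2D (11.1), SIX4 (10.9), EYA3 (4.48), EYA1 (4.30) and SIX2 (4.27). There the gap between SIX4 and EYA3 was the single one without overlap of neighbours. SIX2 was thus the fourth gene of 8 in LT and the last in ST.

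**Figure D1:**
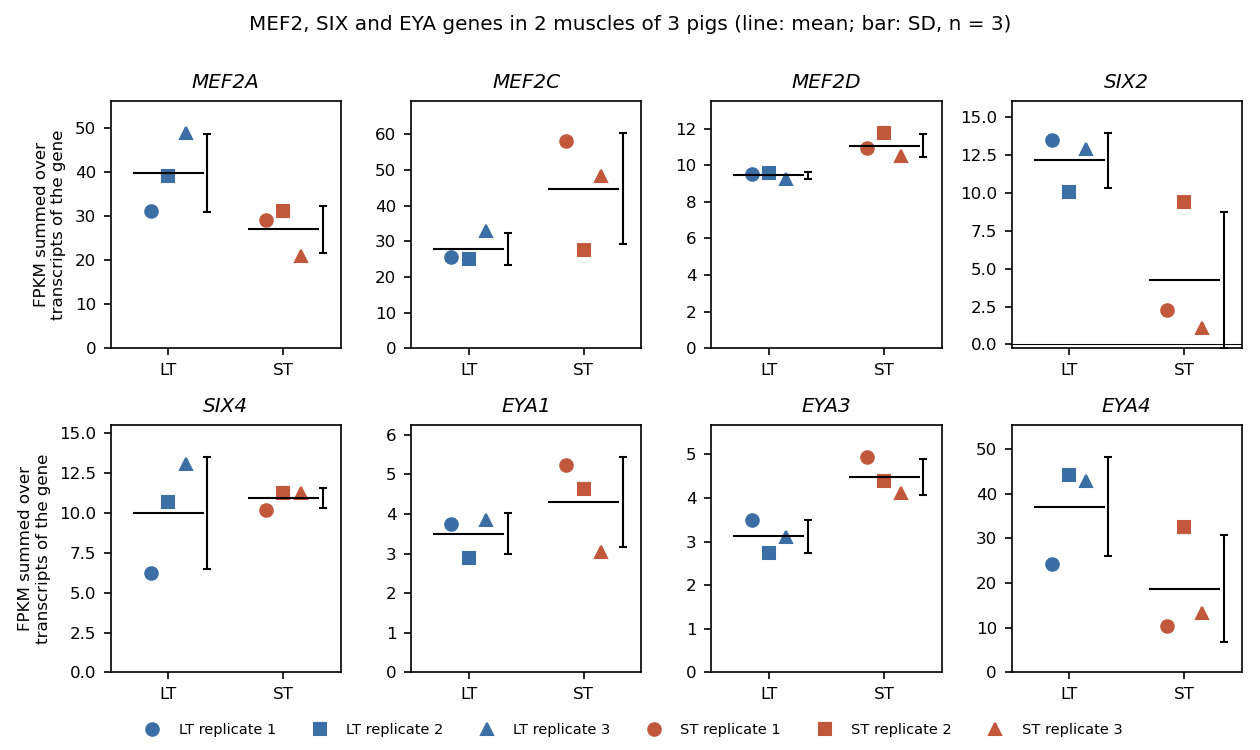
Gene sums in FPKM (vertical axes, linear, each gene with its own scale) for the 8 genes in LT (blue) and ST (red), with 1 symbol shape per pig, the mean as a line and the SD of 3 libraries as a bar. SIX2 lies at 10.1 to 13.5 in LT and at 2.30, 9.40 and 1.10 in ST, and the square of ST replicate 2 sits close to LT for SIX2, EYA4 and MEF2C.

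MEF2A (ENSSSCG00000028771, chromosome 1 from 138341153 to 138511311, plus strand) had gene sums of 31.2, 39.1 and 48.7 in LT replicates 1 to 3 and of 29.0, 31.0 and 21.0 in ST. The highest ST library lay just under the lowest LT library, so the muscles did not overlap, and ST was lower in all 3 pigs. LT averaged 39.7 ± 8.76 and ST 27.0 ± 5.33 (SD, n = 3 each). ST over LT gave -0.55 on the log2 scale (standard error 0.23), which did not pass the test (adjusted p = 0.257 from limma over 19672 genes).

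MEF2C (ENSSSCG00000014149, chromosome 2 from 96122407 to 96296842, minus strand) went the other way. Its gene sums were 25.5, 25.2 and 33.0 in LT and 58.2, 27.6 and 48.2 in ST. ST replicates 1 and 3 lay above every LT library and ST replicate 2 lay among them, while each ST library was above the LT library of the same pig. On the log2 scale ST differed from LT by 0.62 (standard error 0.29; adjusted p = 0.292 from limma). Without ST replicate 2 it was 0.93 (standard error 0.20; adjusted p = 0.0440 from limma), past the p threshold but short of the fold change of 1 that a call also needed. Endothelial cells express MEF2C too, and the 4 endothelial markers measured, PECAM1, CDH5, KDR and TEK, summed to 47.1 to 71.0 in LT and to 113 to 164 in ST, with none at 0. PECAM1 and CDH5 were called higher in ST (adjusted p = 0.0438 and 0.0408 from limma), but not after quantile normalization (0.0567 and 0.0540), and without 1 library their adjusted p went up to 0.180. With the pig as a block KDR was called too (adjusted p = 0.0324 from limma). The part of these cells in the MEF2C value was not tested. In whole muscle, fewer cells of a type and less RNA per cell cannot be told apart.

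MEF2D (ENSSSCG00000006482, chromosome 4 from 93581598 to 93651639, plus strand) was the steadiest of the family within a muscle, at 9.50, 9.57 and 9.25 in LT and 10.9, 11.7 and 10.5 in ST. Every ST library was above every LT library by a small step. The log2 fold change was 0.22 (standard error 0.15; adjusted p = 0.473 from limma), and the median log2 fold change over all genes tested was 0.13. After quantile normalization, which brought that median to 0.02, the value for MEF2D was 0.08.

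MEF2A and MEF2C lay in opposite directions, and the make-up of the summed MEF2 level was compared as well as its size. This comparison was chosen after the values were seen. The 3 genes together came to FPKM of 66.2, 73.8 and 90.9 in LT and of 98.1, 70.4 and 79.7 in ST, which overlapped (2-sided exact permutation test, p = 0.6). MEF2A made up 47.1, 53.0 and 53.6% of that sum in LT and 29.6, 44.1 and 26.3% in ST. MEF2C made up 38.6, 34.1 and 36.3% in LT and 59.3, 39.3 and 60.5% in ST. Neither share overlapped between the muscles, and in both the 2-sided exact permutation test gave p = 0.1, the smallest that 3 against 3 libraries allow. Both shares are parts of the same sum, so they are not separate results. ST replicate 2 again held the values nearest to LT. The share of MEF2D was 10.2 to 14.3% across the LT libraries and 11.1 to 16.7% across those of ST.

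Isoforms were compared in the same way, and a usage value was also formed as log2 of the FPKM of a transcript over that of the rest of its gene, each with 0.1 added. Of the 31 transcripts of the 8 genes, 25 had FPKM above 0.1 in at least 1 library, 5 were listed at 0 in every library, and the other 1 stayed under 0.1. None of the 25 was called by limma, against 0.146% of 52102 transcripts. Without adjustment 5 reached a p under 0.05 (9.69% of all transcripts did), and 8 had no overlap between the muscles (16.3% of all). In usage, 0 of the 24 member transcripts tested were called, against 0.123% of 28384, and 3 had an unadjusted p under 0.05 (6.0% of all). Among transcripts with an unadjusted p under 0.05 in level or usage, 2 lay in the direction opposite to their gene, ENSSSCT00000059700 of MEF2A and ENSSSCT00000065772 of MEF2D.

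ENSSSCT00000059700 (11 exons, 5333 bases, chromosome 1 from 138341703 to 138511311) had FPKM of 0.0598, 0 and 0.0648 in LT and of 4.88, 6.97 and 0 in ST. It was near or at 0 in all LT libraries and in ST replicate 3, and made up 16.8 and 22.5% of MEF2A in ST replicates 1 and 2, so it was higher in ST while the gene sum was lower. On the log2(FPKM + 0.1) scale the difference was 3.46 (standard error 1.58; adjusted p = 0.539 from limma) and that in usage was 4.22 (standard error 1.63; adjusted p = 0.823 from limma). Without ST replicate 3, the ST library where it was listed at 0, the difference was 5.43 with an adjusted p of 0.0310 from limma, a call shared by 0.114% of the 50800 transcripts tested in that fit. The library left out there is the one that went against the difference, which was 2.61 without ST replicate 1 (adjusted p = 0.733 from limma) and 2.35 without ST replicate 2 (adjusted p = 0.619 from limma). It was thus above LT in 2 of 3 pigs.

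ENSSSCT00000028081 of MEF2A (14 exons, 5801 bases, chromosome 1 from 138341683 to 138511309) had FPKM of 9.11, 10.7 and 13.6 in LT and of 3.96, 2.74 and 4.36 in ST. Its ST values were all less than the lowest LT value, and its share of the gene was 28.1% ± 0.957 in LT and 14.4% ± 6.03 in ST (SD, n = 3 each). Its log2 fold change was -1.58 (standard error 0.27; adjusted p = 0.178 from limma; 0.105 to 0.398 over the alternatives), the smallest p among the member transcripts. Added together, ENSSSCT00000028081 and ENSSSCT00000059700 came to 9.17, 10.7 and 13.7 in LT and 8.84, 9.70 and 4.36 in ST, a sum that overlapped between the muscles. The other MEF2A transcripts were lower in ST on average, as the gene sum was. ENSSSCT00000023102, the most abundant, had 15.4, 18.0 and 24.5 in LT and 12.6, 13.2 and 12.3 in ST, with 42.7 to 58.9% of the gene in every library. ENSSSCT00000065681 had 6.62, 10.5 and 10.5 in LT and 7.61, 8.08 and 4.26 in ST. It overlapped between the muscles and was higher in ST than in LT in pig 1.

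ENSSSCT00000065772 of MEF2D (11 exons, 6225 bases, chromosome 4 from 93581609 to 93616983) had FPKM of 0.751, 1.42 and 1.57 in LT and of 0.337, 0.232 and 0.329 in ST. All ST values lay under all LT values, while the gene sum was higher in ST. Its share of MEF2D was 13.2% ± 4.75 in LT and 2.73% ± 0.655 in ST (SD, n = 3 each). For its level the log2 fold change was -1.71 (standard error 0.37; adjusted p = 0.261 from limma), and the usage difference was -2.10 (standard error 0.50; adjusted p = 0.499 from limma). With limma diffSplice, which sets a transcript against the mean of the other transcripts of its gene, the difference was -2.23 with an adjusted p of 0.00313, a call that 0.606% of the 28384 transcripts shared. The adjusted p of its usage ranged from 0.00313 to 0.813 over the alternatives, and diffSplice was the single one past the threshold.

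The other 3 MEF2D transcripts with a mean FPKM of at least 0.5 were level or higher in ST, and ENSSSCT00000042780, under 0.02 in every library, was lower there. ENSSSCT00000007100, with 67.5 to 77.5% of the gene, had FPKM of 6.50, 6.61 and 6.24 in LT and 7.86, 9.10 and 7.73 in ST, and no library of LT reached ST. ENSSSCT00000038518 had 0.939, 0.933 and 0.853 in LT and 1.09, 1.30 and 1.18 in ST. ENSSSCT00000086542, a short form of 5 exons, had 1.18, 0.524 and 0.516 in LT and 1.49, 0.688 and 1.10 in ST.

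For MEF2C, ENSSSCT00000045699 and ENSSSCT00000060135 carried most of the level and followed the gene sum from library to library. The former had FPKM of 11.3, 9.01 and 15.1 in LT and 28.5, 13.1 and 22.6 in ST, and the latter 9.79, 9.56 and 12.8 in LT and 22.6, 10.5 and 17.0 in ST. Minor forms varied between libraries of the same muscle. ENSSSCT00000052217 had 1.74, 6.51 and 1.75 in LT and 2.91, 1.43 and 8.41 in ST, and ENSSSCT00000015454 had 2.66, 0.0844 and 3.27 in LT and 4.19, 2.61 and 0.181 in ST. In LT replicate 2 and ST replicate 3 the first was high and the second near 0, and their sum spanned less, at 4.41 to 6.59 in LT and 4.03 to 8.60 in ST. None of the MEF2C transcripts differed in usage at an unadjusted p of 0.05.

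**Figure D2:**
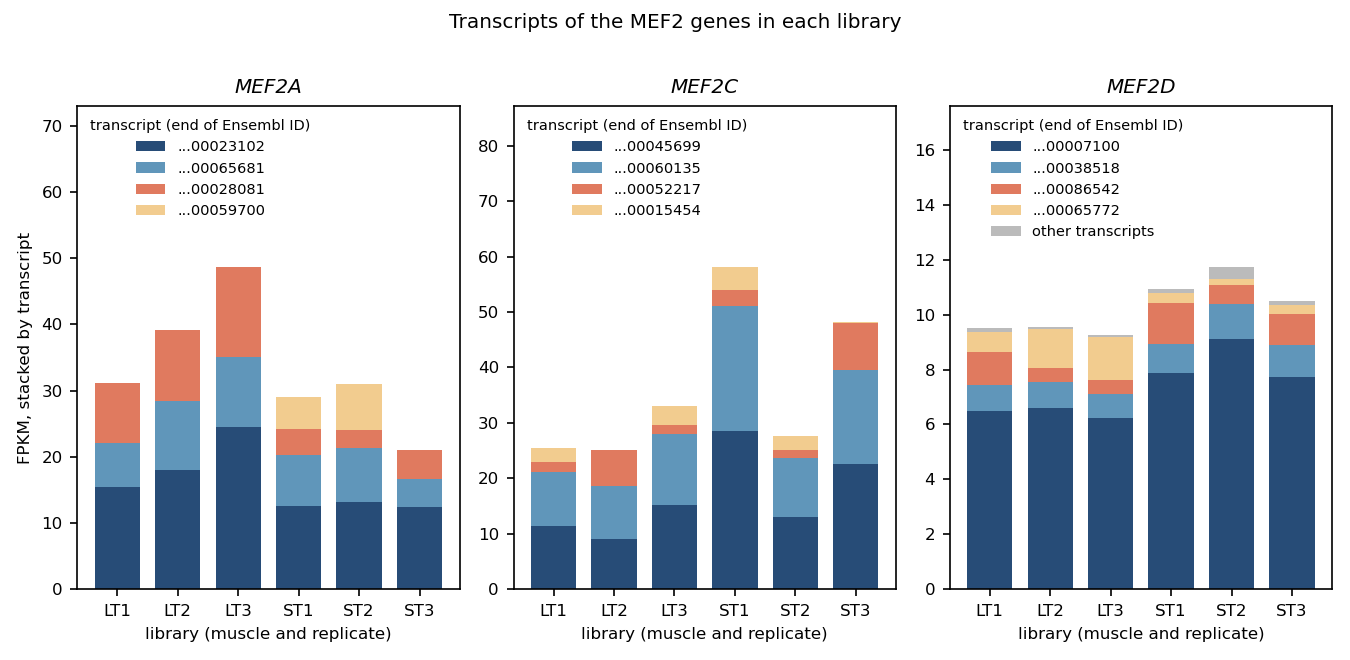
FPKM of the transcripts of MEF2A, MEF2C and MEF2D stacked to the gene sum (vertical axes, linear, own scale per gene) in each of the 6 libraries on the horizontal axis, with minor transcripts together in grey. The yellow block of MEF2A (ENSSSCT00000059700) appears in ST replicates 1 and 2 at 4.88 and 6.97, and the yellow block of MEF2D (ENSSSCT00000065772) is 0.751 to 1.57 high in LT and 0.232 to 0.337 in ST.

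SIX2 (ENSSSCG00000008446, chromosome 3 from 95459937 to 95464066, plus strand), a homeobox factor best known from kidney and connective tissue development, had the widest difference of the 8 genes. Its gene sums were 13.5, 10.1 and 12.9 in LT and 2.30, 9.40 and 1.10 in ST, all from 1 transcript of 2 exons. ST replicates 1 and 3 lay far under LT and ST replicate 2 just under it, and ST was lower in all 3 pigs. LT averaged 12.1 ± 1.82 and ST 4.27 ± 4.48 (SD, n = 3 each). ST over LT was -2.01 on the log2 scale (standard error 0.65; adjusted p = 0.157 from limma). With the pig as a block the adjusted p was 0.0886. Without ST replicate 2, SIX2 fell by 2.84 on the log2 scale (standard error 0.32; adjusted p = 0.00598 from limma) and was called. ST replicate 2 was the ST library nearest to LT for SIX2, so that fit left out the library most against the difference. Without ST replicate 3, the lowest library, the value was -1.35 (adjusted p = 0.316 from limma), and without any other single library it was -1.85 to -2.14 (adjusted p of 0.286 to 0.333 from limma).

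The plus strand at SIX2 faces an unannotated locus on the minus strand, XLOC_077710, with mRNA transcripts from 95459710 to 95463549 on chromosome 3. That locus had FPKM of 2.60, 1.86 and 2.50 in LT and of 0.418, 1.95 and 0.205 in ST, or 18.1 to 20.7% of SIX2 in every library. Libraries were made with a directional kit, but the strand setting of the assembly is not given in the sources used here, so reads of SIX2 and of this locus may not be separable. For the other members, transcripts on the opposite strand summed to at most 13.2% of the member in any library.

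SIX4 (ENSSSCG00000005089, chromosome 1 from 189670390 to 189682783, minus strand), a homeobox factor of muscle precursors and adult muscle, showed no such difference. Its gene sums were 6.21, 10.7 and 13.1 in LT and 10.2, 11.3 and 11.3 in ST, with the ST libraries inside the range of LT. Its log2 fold change was 0.19 (standard error 0.27; adjusted p = 0.753 from limma), and it turned to -0.12 without LT replicate 1, the library with the lowest value. ENSSSCT00000055647 gave 74.3 to 100% of the gene, and ENSSSCT00000005609 had FPKM of 0 to 2.75 in LT and 0.567 to 1.96 in ST.

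EYA4 (ENSSSCG00000034139, chromosome 1 from 30261909 to 30575559, minus strand) was the most abundant EYA gene. Its gene sums were 24.3, 44.2 and 42.7 in LT and 10.4, 32.6 and 13.3 in ST. ST replicate 2 lay above LT replicate 1, so the muscles overlapped, while within each pig ST was lower. LT averaged 37.1 ± 11.1 and ST 18.8 ± 12.0 (SD, n = 3 each), and the log2 fold change was -1.11 (standard error 0.43; adjusted p = 0.217 from limma). With the pig as a block the standard error was 0.25 and the adjusted p was 0.0525. Without ST replicate 2, EYA4 fell by 1.60 on the log2 scale (standard error 0.29; adjusted p = 0.0276 from limma) and was called. For EYA4, too, the library left out there was the ST library nearest to LT. Without any other single library the value was -0.78 to -1.39 (adjusted p of 0.242 to 0.463 from limma). Its 3 transcripts differed little in their shares. ENSSSCT00000036887 gave 84.6 to 86.6% of the gene in LT and 81.2 to 83.9% in ST, a small step without overlap (2-sided exact permutation test, p = 0.1). No EYA4 transcript differed in usage at an unadjusted p of 0.05.

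EYA3 (ENSSSCG00000003580, chromosome 6 from 85095409 to 85185799, minus strand) had gene sums of 3.50, 2.74 and 3.11 in LT and 4.93, 4.39 and 4.11 in ST. Every ST library was above every LT library, also within each pig. The log2 fold change was 0.51 (standard error 0.19; adjusted p = 0.194 from limma; 0.125 to 0.448 over the alternatives), under the fold a call needed. ENSSSCT00000003975 gave 91.9 to 95.4% of EYA3 in LT and 95.3, 94.2 and 59.3% in ST. In ST replicate 3 the rest came from ENSSSCT00000052478, which had FPKM of 1.61 there and 0.128 to 0.212 in the other 5 libraries.

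EYA1 (ENSSSCG00000040728, chromosome 4 from 63970511 to 64328105, plus strand), a coactivator of SIX-family factors in fast fibres, had gene sums of 3.74, 2.90 and 3.85 in LT and 5.23, 4.63 and 3.04 in ST. ST replicate 3 lay within LT and the other ST libraries above it. ST and LT differed by 0.27 on the log2 scale (standard error 0.25; adjusted p = 0.602 from limma). Its isoforms varied widely within a muscle. ENSSSCT00000058077 had FPKM of 3.29, 2.21 and 1.41 in LT and 3.86, 1.98 and 2.56 in ST, while ENSSSCT00000036860 had 0, 0.539 and 1.92 in LT and 0.682, 1.58 and 0 in ST. ENSSSCT00000043516 had 0.149 to 0.523 in LT and 0.484 to 1.07 in ST.

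Over the 8 genes, 0 were called by limma, against 0.574% of the 19672 genes tested (0.412% higher and 0.163% lower in ST). At an unadjusted p under 0.05, 1 member was higher (EYA3; 13.0% of all genes) and 3 were lower in ST (MEF2A, SIX2 and EYA4; 5.75% of all genes). The muscles did not overlap for 2 members higher in ST (MEF2D and EYA3; 16.6% of all genes) and for 2 lower in ST (MEF2A and SIX2; 8.08% of all genes). The median log2 fold change of the 8 was 0.21, against 0.13 over all genes tested. With the pig as a block, 0 members were called, against 4.06% of all genes. Without ST replicate 2, 2 members were called, SIX2 and EYA4, against 5.08% of 19515 genes. They were also the 2 called with the pig as a block and both libraries of pig 2 left out, where 7.22% of 19399 genes were called. That fit was chosen after the data were seen. For SIX2 and EYA4, ST replicate 2 lay nearer to LT than to the other ST libraries. These calls are therefore not independent of the choice to leave it out. No single-gene exact permutation test could go under p = 0.1, which MEF2A, MEF2D, SIX2 and EYA3 reached. These tests did not use the pairs of libraries from a pig, and that p restates the lack of overlap given above.

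**Figure D3:**
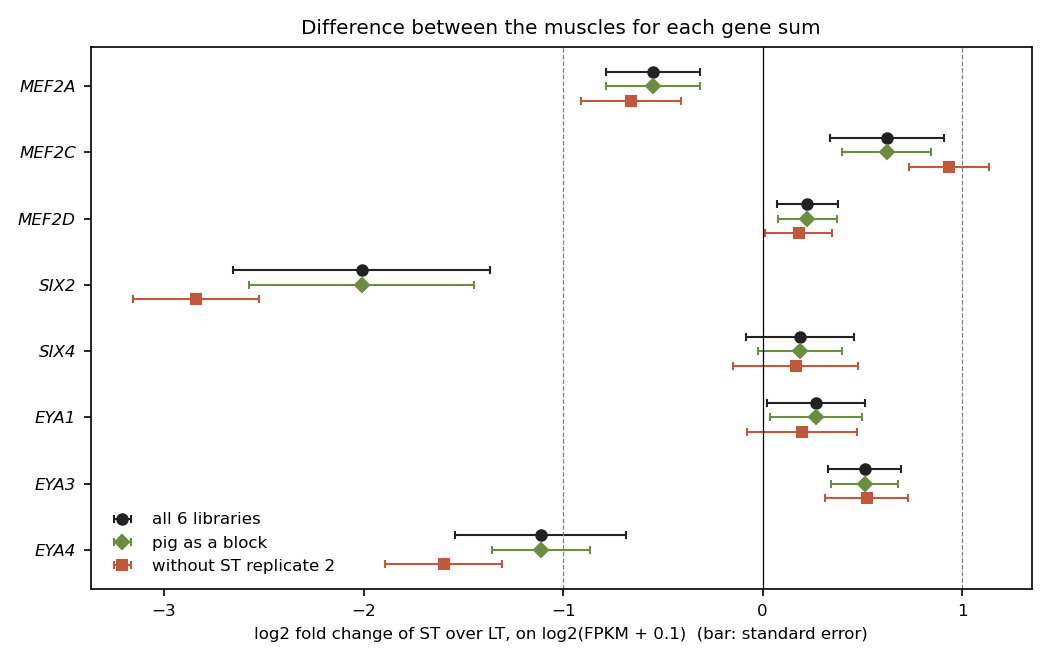
Log2 fold change of ST over LT with its standard error (horizontal axis) for the 8 genes, from limma on all 6 libraries, with the pig as a block, and without ST replicate 2; dashed lines mark a fold change of 1 on the log2 scale. SIX2 moves from -2.01 to -2.84 and EYA4 from -1.11 to -1.60 when ST replicate 2 is left out, and MEF2D, SIX4, EYA1 and EYA3 stay at or under 0.52.

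SIX2 and EYA4 were set beside fast fibre and glycolytic genes library by library. Across the 6 libraries the Pearson correlation of SIX2 on log2(FPKM + 0.1) was 0.99 with TNNI2, fast troponin I, and 0.99 with ACTN3, the fast fibre actinin. It was 0.97 with TNNT3, fast troponin T, 0.96 with ALDOA, muscle aldolase, and 0.92 with ENO3, muscle enolase. TNNI2 had FPKM of 8020, 8404 and 7527 in LT and 1464, 6024 and 458 in ST. EYA4 had a correlation of 0.96 with ENO3 and 0.91 with ALDOA, against 0.84 with TNNI2, 0.82 with ACTN3 and 0.79 with TNNT3. Differences between these correlations were not tested. SIX2 and EYA4 correlated at 0.85 with each other. Among genes with a mean FPKM of at least 1, EYA4 ranked 444 for SIX2, and SIX2 ranked 349 for EYA4. For SIX2, TNNI2 ranked 6 and ENO3 230, and for EYA4, ENO3 ranked 30 and TNNT3 603. A correlation above 0.95 was reached by 105 genes for SIX2 and by 51 for EYA4. These values describe 6 libraries that share pigs, with ST replicate 2 among them, and the part of fibre make-up in the SIX2 and EYA4 differences was not tested.

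**Figure D4:**
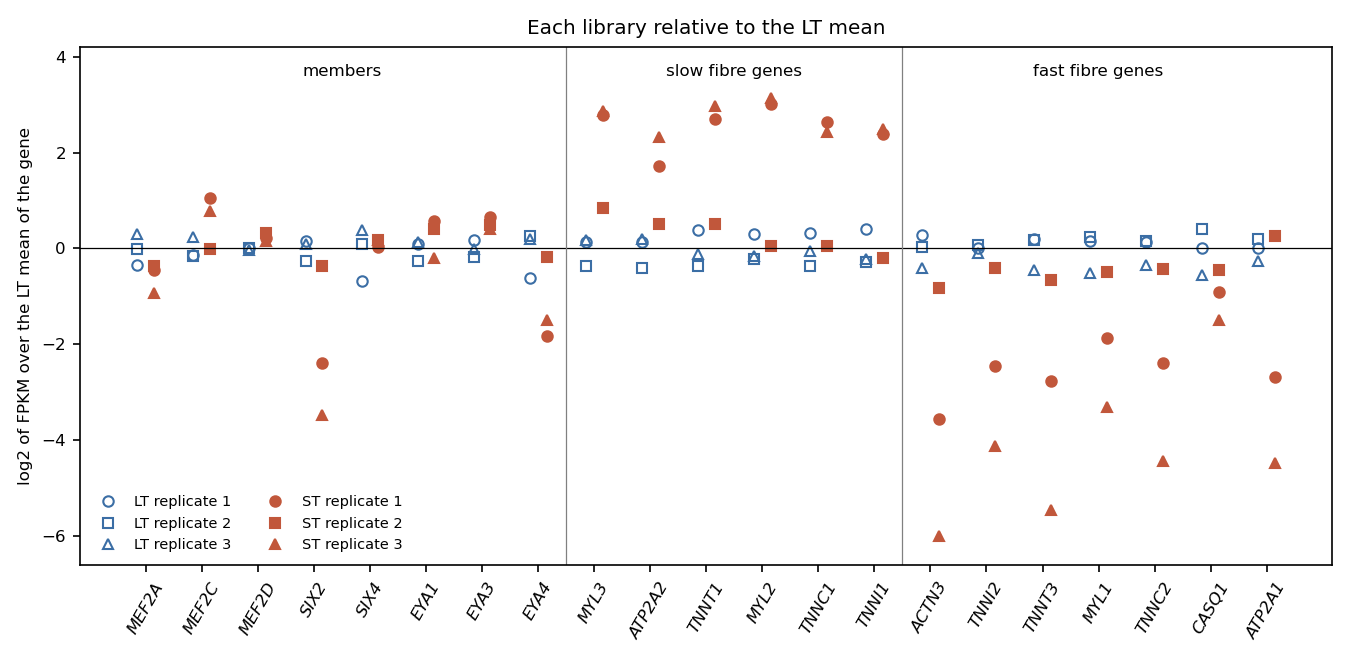
Log2 of FPKM over the LT mean of the gene (vertical axis) for each library, for the 8 members, 6 slow fibre genes and 7 fast fibre genes (PVALB, the other fast gene, is not drawn); open symbols are LT and filled symbols are ST, with 1 shape per pig. ST replicates 1 and 3 lie at -2.40 and -3.46 for SIX2 and at -1.83 and -1.48 for EYA4, while ST replicate 2 (square) lies at -0.37 and -0.19.

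The genes most like each member were taken as the 3 with the highest Pearson correlation over the 6 libraries, among 11100 genes with a mean FPKM of at least 1. For SIX2 these were XLOC_077710 (0.999), the locus on its opposite strand, COPS7A (0.998) and PACSIN3 (0.997). For EYA4 they were XLOC_019813 (0.995), NFATC3 (0.993), a calcineurin-controlled factor, and RORA (0.992), a nuclear receptor. MEF2C was most like REEP3 (0.996), MAT2B (0.991) and SNX1 (0.991), and MEF2A like CCDC32 (0.985), CCAR1 (0.983) and ARID1B (0.982). MEF2D was most like LPIN2 (0.997), ANK3 (0.993) and CDR2 (0.990), and SIX4 like MED27 (0.998), XLOC_073586 (0.986) and MACF1 (0.984). EYA1 was most like MBOAT7 (0.987), RAI14 (0.978) and NDRG3 (0.975), and EYA3 like XLOC_134085 (0.998), ENSSSCG00000037963 (0.996) and RGL1 (0.996). High correlations are common over so few libraries, and one above 0.95 was reached by 6 genes for EYA1 and by 200 for MEF2C.

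Among the other genes of the same families, 6 of 8 were above the FPKM filter and 0 were called. EYA2 had FPKM of at most 0.427 in any library. DACH1, a corepressor of SIX-family factors, had FPKM of 1.58, 1.18 and 1.47 in LT and 3.98, 2.34 and 2.53 in ST, with no overlap. Its log2 fold change was 0.99 (standard error 0.26; adjusted p = 0.105 from limma, and 0.0421 with the pig as a block). DACH2 stayed under 0.213 in all libraries.

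Of 19 corepressors and coactivators of MEF2, 0 were called and 6 had an unadjusted p under 0.05, all higher in ST, against the 13.0% higher and 5.75% lower of all genes. The list had a median log2 fold change of 0.42 (0.13 over all genes). After quantile normalization 4 were higher at that p and the median was 0.28 (0.02 over all genes). HDAC9, a class II deacetylase that represses MEF2, had FPKM of 3.27, 2.35 and 4.01 in LT and 9.56, 4.34 and 8.11 in ST. Its muscles did not overlap, and the log2 fold change was 1.12 (standard error 0.33; adjusted p = 0.129 from limma). HDAC9 was called with the pig as a block (adjusted p = 0.0327 from limma) and without ST replicate 2 (adjusted p = 0.0249 from limma). VGLL2, a muscle cofactor of TEAD and MEF2, had 16.2, 13.7 and 14.3 in LT and 28.2, 26.5 and 20.4 in ST (adjusted p = 0.0960 from limma). HDAC7 had 2.32 to 3.32 in LT and 4.13 to 4.81 in ST, and NCOA2 2.88 to 3.61 in LT and 4.27 to 5.36 in ST.

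Of 20 kinases and phosphatase subunits that act on MEF2 or class II deacetylases, 0 were called. At an unadjusted p under 0.05, 3 were higher (13.0% of all genes) and 4 lower in ST (5.75% of all genes). PRKD1, protein kinase D1, which exports class II deacetylases from the nucleus, had FPKM of 3.02, 2.69 and 3.01 in LT and 5.76, 5.12 and 5.81 in ST, with the libraries of each muscle close together. PRKD1 differed by 0.91 on the log2 scale (standard error 0.17; adjusted p = 0.0628 from limma). PPP3R1, the regulatory subunit of calcineurin, had 39.2, 41.7 and 42.1 in LT and 12.8, 26.2 and 12.6 in ST. Its log2 fold change was -1.34 (standard error 0.29, adjusted p = 0.0738 from limma). PPP3R1 was called with the pig as a block (adjusted p = 0.0335 from limma) and without ST replicate 2 (adjusted p = 0.00383 from limma). The catalytic subunits of calcineurin in the list, PPP3CA (log2 fold change -0.20) and PPP3CB (-0.04), overlapped between the muscles. PRKAA2, a catalytic subunit of AMPK, had 100.4, 75.4 and 85.2 in LT and 55.2, 53.2 and 40.2 in ST. SIK1 had 8.15, 11.3 and 3.83 in LT and 16.0, 35.8 and 19.2 in ST, and was called with the pig as a block (adjusted p = 0.0285 from limma).

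Target genes of both families were counted too, and these lists share genes with the fibre lists, such as TNNI1 and TNNT3. Of 12 MEF2 target genes measured, 1 was called (0.574% of all genes were), and the median log2 fold change was 0.75. At an unadjusted p under 0.05, 6 were higher in ST (13.0% of all genes) and 0 lower (5.75%). The called gene was MYBPC1, the slow myosin-binding protein C, which rose in ST, with FPKM of 435 to 608 in LT and 1539 to 2547 in ST (log2 fold change 2.02, standard error 0.31; adjusted p = 0.0408 from limma). The call was lost after quantile normalization, where 0 of the 12 passed, and its adjusted p from limma went up to 0.189 without 1 library. With the pig as a block PPARGC1A was called as well (adjusted p = 0.0291 from limma). Without ST replicate 2, 3 were called (5.08% of all genes in that fit), all higher in ST. These were MYBPC1, PPARGC1A (adjusted p = 0.0415 from limma) and TNNI1 (adjusted p = 0.00528 from limma). TNNI1 is also in the slow fibre list, on which ST replicate 2 was set apart. KLF2 had 27.7 to 30.5 in LT and 46.0 to 55.1 in ST, SLC2A4, the insulin-regulated glucose transporter, 40.8 to 47.1 and 71.2 to 102, and PPARGC1A, the coactivator of mitochondrial genes, 3.05 to 5.81 and 10.5 to 68.7. Of 12 SIX-family target genes, 0 were called in all 6 libraries. Without ST replicate 2, 5 were called (5.08% of all genes in that fit), all lower in ST: ALDOA, ENO3, GAPDH, PVALB and TNNT3. PVALB and TNNT3 are also in the fast fibre list, on which ST replicate 2 was set apart. In all 6 libraries 5 were lower in ST at an unadjusted p under 0.05 (5.75% of all genes), and the median log2 fold change was -1.06. ALDOA had 7885, 8312 and 7201 in LT and 1372, 4794 and 1328 in ST, and GPD1 244 to 370 in LT and 84.6 to 203 in ST. Of the 10 myogenic bHLH factors, their E protein partners and ID inhibitors, 0 were called. At an unadjusted p under 0.05, 5 were higher in ST (13.0% of all genes). ID1 had 46.4, 26.9 and 21.9 in LT and 105, 76.5 and 116 in ST (adjusted p = 0.0593 from limma, and 0.0265 with the pig as a block, where it was called). Without ST replicate 2, 2 of the 10 were called, both higher in ST. They were ID1 (adjusted p = 0.0215 from limma) and ID3 (adjusted p = 0.0496 from limma). TCF4 had 18.5 to 20.7 in LT and 26.2 to 45.1 in ST.

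Markers of cell types were counted in the same way, beside 13.0% of all genes higher and 5.75% lower in ST at an unadjusted p under 0.05. Of the 6 slow genes 0 were called and all 6 were higher in ST at an unadjusted p under 0.05, with a median log2 fold change of 1.91 (2.71 without ST replicate 2, where all 6 were called). Of the 8 fast genes 0 were called and 6 were lower, with a median of -2.36 (-3.48 without it, where 7 were called). ST replicate 2 was set apart on these same genes, so the values without it restate that choice. With the pig as a block 3 slow genes were called, ATP2A2, MYL3 and TNNT1 (adjusted p of 0.0337, 0.0283 and 0.0403 from limma), and 0 fast genes. Among the cell type lists the endothelial one alone had calls with all 6 libraries, 2 of 4, and after quantile normalization it had 0. None was called among 4 genes of the muscle fibre, 4 of satellite cells, 5 of adipocytes, 5 of fibroblasts, 4 of smooth muscle, 4 of macrophages and 3 of Schwann cells. Their summed FPKM overlapped between the muscles, other than for smooth muscle, which had 97.2 to 125 in LT and 135 to 173 in ST. At an unadjusted p under 0.05, 1 satellite cell gene (CDH15) and 1 adipocyte gene (LEP) were lower in ST. At that p 2 smooth muscle genes (ACTA2 and MYH11) were higher, and 0 genes differed in the lists of the muscle fibre, fibroblasts, macrophages and Schwann cells. Of the other satellite cell genes, MYF5 (log2 fold change 0.82) and PAX7 (0.30) lay in the direction opposite to CDH15, and CALCR (-0.11) did not. LEP was near the floor, with FPKM of 0.185 to 0.253 in LT and 0.039 to 0.081 in ST. Its log2 fold change ran from -1.81 to -0.21 over the alternatives.

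Long noncoding RNAs were read in a window of 100000 bp around each member. The files list 24 there, of which 23 were above the FPKM filter and 10 overlapped a member on its opposite strand. Of these lncRNAs 0 were called (0.146% of all transcripts were) and 5 had an unadjusted p under 0.05 (9.69% of all transcripts). All 5 lay in the window of MEF2A and were lower in ST. LNC_000839, which overlaps MEF2A on the minus strand (chromosome 1 from 138341225 to 138432673), had FPKM of 1.01, 1.57 and 1.69 in LT and 0.626, 0.837 and 0.723 in ST. On the log2 scale it differed by -0.85 (standard error 0.31; adjusted p = 0.468 from limma). The other 4 lie 77381 to 83381 bases from MEF2A between 138249314 and 138263772. Of these, LNC_000836 and LNC_000837 overlap on the minus strand, so they are not separate loci. ENSSSCT00000091580 overlaps both in position on the plus strand. The strand setting of the assembly is not given, so its reads may not be separable from theirs. Apart from 1.47 for LNC_000837 in LT replicate 2, no value of the 4 was above 0.312. LNC_000836 had 0.294, 0.206 and 0.126 in LT and was listed at 0 in ST, and LNC_000837 had 0.312, 1.47 and 0.243 in LT and at most 0.0392 in ST. ENSSSCT00000091580 had 0.302, 0.202 and 0.164 in LT and at most 0.0244 in ST, and LNC_000308 had 0.211, 0.226 and 0.0438 in LT and at most 0.0278 in ST. The next by p was LNC_007742 inside MEF2D, listed at 0 in LT and at 0.0231, 0.0785 and 0.420 in ST. ENSSSCT00000056775, which starts 595 bases from MEF2C on the other strand, had FPKM of 4.0 to 5.06 in LT and of 4.24 to 7.38 in ST, the highest level of the 24.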

How the data were processed

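The authors deposited 1 FPKM value per assembled transcript and library. Reads from ribosomal-RNA-depleted, directional libraries had been filtered with SOAPnuke, mapped with HISAT2 and assembled with StringTie by the authors on Sus scrofa 11.1. The StringTie version and strand setting are not given in the sources used here. The files hold no counts, so the depth behind single values is unknown. Symbols were taken from an Ensembl table that named 14692 of 21902 Ensembl gene IDs, and 117 of 130 listed symbols matched.

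Gene sums, transcripts and isoform usage were tested in R 4.3.3 with limma 3.58.1, which fitted log2(FPKM + 0.1) and a trend of variance on level, with Benjamini-Hochberg adjustment over all features with FPKM above 0.1 in at least 1 library. A feature was called at an adjusted p under 0.05 and a log2 fold change beyond 1 in size. On simulated data of 19672 genes, 191 of 200 genes shifted by 4 on the log2 scale were recovered with 6 other calls, and 120 of those shifted by 2. On 52102 simulated transcripts, 108 of 200 were recovered at a shift of 4 and 0 at 2. In usage, 64 of 200 and 0 were. P-values measure the spread between these libraries. Single values were compared with exact permutation tests, which did not use the pairing by pig, in Python 3.11.15 (scipy 1.17.1).

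The study took both muscles from the same pigs, and the replicate numbers were taken to pair the libraries. Residuals of same-numbered libraries correlated at 0.290, 0.261 and 0.292 across genes (-0.141 on average for different numbers). Residuals sum to 0 within a muscle, so the value for different numbers largely follows from the others. The pig as a block, other pseudocounts, filters and scalings, limma diffSplice, and the fit without each library in turn were the alternatives. All 8 members were named. Transcripts with a mean FPKM of at least 0.5 in a muscle or a direction against their gene at an unadjusted p under 0.05, up to 4 genes per list and 6 lncRNAs by smallest p, and 3 most-like genes per member were given values, other than 1 listed gene that is not reported here. The members and lists were chosen with earlier results of these data known.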

Additional observations from a re-analysis of the deposited data

How the results depend on the processing

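None of the 8 members was called by limma with all 6 libraries, under any pseudocount, filter, scaling or variance setting, or with the replicate block. The count without 1 library ran from 0 to 2, and the 2 were SIX2 and EYA4 without ST replicate 2. With the block and without both libraries of pig 2, an alternative chosen after seeing the data, 2 were called, SIX2 at -2.97 (adjusted p = 0.00105 from limma) and EYA4 at -1.45 (adjusted p = 0.00650 from limma). Members at an unadjusted p under 0.05, 4 with all libraries, ran from 1 to 5 when 1 library was left out. SIX4, at 0.19, ran from -0.12 to 0.41, and was the single reversal among 16 gene and transcript differences. Member transcripts called, 0 with all libraries, ran from 0 to 1 (ENSSSCT00000059700 of MEF2A without ST replicate 3), and those at an unadjusted p under 0.05, 5 with all libraries, from 2 to 7, with 3 when no variance trend was fitted. In usage diffSplice called 1, MEF2D ENSSSCT00000065772. Usage at an unadjusted p under 0.05, 3 with all libraries, was 1 with a pseudocount of 0.01, 1 to 3 without 1 library, and 0 with the block and without pig 2. The cause of these shifts was not tested. Of 36 further transcript differences, 17 changed sign under at least 1 of 16 alternatives.

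Over all genes the calls moved as well. Without ST replicate 2 they went from 0.574 to 5.08% of the genes tested, and from 0 to 2 of the 8 members. The 113 genes called (81 higher and 32 lower in ST) became 799 with the replicate block, which pairs the libraries of a pig, and 1400 with the block and without pig 2. They became 54 after quantile normalization (28 higher and 26 lower), 30 without the FPKM filter, 29 without the variance trend, and 12 to 991 without 1 library. The 76 transcripts and 35 usage differences called became 2 and 0 with the replicate block, 0 and 0 with the block and without pig 2, 120 and 59 with FPKM above 0.1 required in 3 libraries, and 46 to 256 and 0 to 72 without 1 library. Transcripts called were 37 with a pseudocount of 1 and 30 without the FPKM filter, and usage calls were 70 with a pseudocount of 0.01 and 172 with diffSplice. The block changed no call of a member. Depth is unknown for these FPKM values, so the precision of low values, such as transcripts near 0, rests on the spread of 3 libraries alone.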
